A study of Mus musculus with 42 samples.

Results

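Ubb and Rps27a, a pair of mouse genes whose transcripts encode ubiquitin, were followed through arsenic stress, recovery and muscle cell differentiation. Members were taken by gene symbol in RNA-seq. In 3′READS, a method that sequences the 3′ ends of poly(A)+ transcripts, they were taken by position, as the polyadenylation sites (PASs) inside the annotated gene span or up to 4 kb downstream on its strand, stopping at the next gene. The rule gave 2 members of 14429 genes with a PAS read in 3′READS and of 12365 genes listed in RNA-seq, and it took 3 PAS positions of Ubb and 8 of Rps27a out of 99725 in all.

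The 42 libraries came from NIH3T3 cells, a mouse embryonic fibroblast line, and from C2C12 cells, a mouse myoblast line studied as proliferating cells (MB) and as differentiated myotubes (MT). The labels give strain C57BL/6 for all of them, and each line stands for 1 cell source, so that a result may belong to the line. Stressed cells (AS) had 250 µM sodium arsenite for 1 h, recovering cells had the same treatment and then 4, 8, 12 or 24 h in normal medium (RC4, RC8, RC12 and RC24), and non-treated cells (NT) had neither. NIH3T3 cells gave 10 total RNA libraries (3 NT, 3 AS and 1 of each recovery time), 8 libraries of RNA labeled with 50 µM 4-thiouridine (4sU) for the last 1 h before harvest and of the unlabeled flow-through (Ft), 8 libraries of cytoplasmic input and of RNA recovered with an antibody to TIA1, a stress granule protein that binds RNA, and 4 RNA-seq libraries. C2C12 cells gave 8 cytoplasmic libraries (NT, AS and RC4 in each state) and 4 total RNA libraries of non-treated MB and MT. In the 4sU, Ft, cytoplasmic C2C12 and RNA-seq sets, NT had 2 libraries and AS and RC4 had 1 each, so a lone library was assumed to vary like the replicated ones, and the 2 NT libraries were collected at the 0 h and the 4 h time. The labels do not say that replicates were separate cultures, so p-values measure the spread between these libraries.

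Depth ran from 1048335 to 6974664 reads in 3′READS and from 17137579 to 25194062 reads in RNA-seq, and every file lists only values of at least 5 reads. All 5 fibroblast markers and none of the myoblast or myotube markers passed the expression filter in NIH3T3 total RNA. In the other NIH3T3 sets, 1 of 6 myotube markers passed in 4sU and Ft and 2 of 6 in RNA-seq, and no myoblast marker passed in these. The fibroblast markers do not set the lines apart, since all 5 also passed in the C2C12 sets. In C2C12 total RNA, 4 of them were called higher and 1 lower in MT than in MB (median log2 difference 2.88). All 6 myotube markers were higher in MT than in MB, with a median log2 difference of 14.61. Of 3 myoblast markers tested there, 2 (Des and Myod1) were also called higher in MT and none lower (median 2.15), which goes against their use as markers of MB, while Myf5 was at -0.41 (edgeR adjusted p = 0.104). The 5 stress genes checked against the labels (Hmox1, Dnajb1, Hsph1, Hspa1b and Bag3) were all called higher at RC4 in 4sU, Ft, MB, MT and RNA-seq. In bulk RNA, fewer cells and less RNA per cell cannot be told apart, and every level below is relative to the other RNA in the library.

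Ubiquitin is a small protein that cells attach to other proteins, most often to mark them for the proteasome, and it is recycled when deubiquitinases remove it. No mammalian gene encodes a single free ubiquitin. Ubb is a polyubiquitin gene, whose product is a head-to-tail chain that is cut into units, and it is known to respond to heat and oxidative stress. Rps27a encodes 1 unit fused to eS31, a protein of the small ribosomal subunit, and so supplies ubiquitin and ribosomes from one transcript. Arsenite is known to damage proteins through their thiols.

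In the GENCODE annotation of mm9, Ubb (ENSMUSG00000019505.6) lies on chromosome 11, plus strand, from 62364673 to 62366715. Its coding sequence of 918 nt holds 4 ubiquitin units. Rps27a (ENSMUSG00000020460.9) lies on the minus strand of the same chromosome, from 29445846 to 29448109, and its coding sequence of 471 nt holds 1 unit followed by 80 residues of the ribosomal protein. Each unit is 76 residues long, and all 76 were the same in every unit of Ubb and Rps27a, although the underlying 228 nt differed. The 4 units of Ubb were 95.6% to 99.1% identical to each other as DNA and 80.7% identical to the unit of Rps27a.

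The 3′ ends are printed below because they are what 3′READS counts for these genes, with the poly(A) signal AATAAA in capitals and the last base at the PAS. They run 5′ to 3′ on the gene's strand and were read from mm9.
Ubb main PAS: aatgttAATAAAggttttgttgcatggtaa
Ubb second PAS: ttgactaaaatatgcatcatttacagctta
Rps27a main PAS: gcgttAATAAAaagaaggaactcgtactta
Rps27a second PAS: cttagtattgtgctttattgtacatttaaa

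One PAS carried nearly all reads of each gene. For Ubb it was at 62366710, in the 3′UTR and 5 nt inside the annotated end, with AATAAA beginning 24 nt upstream, and it held 98.8% of 5834 reads and was listed in 37 of 38 libraries. The second Ubb PAS, at 62366834 and 119 nt past the annotated end, had no AATAAA or ATTAAA upstream, held 1.25% of the reads and was listed in 7 libraries. For Rps27a the main PAS was at 29445842, 4 nt past the annotated end, with AATAAA 25 nt upstream, and it held 95.6% of 8642 reads and was listed in all 38 libraries. The second Rps27a PAS, at 29445816, held 3.11% of the reads in 24 libraries.

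Both genes have near-identical copies of their 3′ ends elsewhere in mm9, and these copies also received PAS reads. A search of the last 60 nt before the main PAS found 8 other places with at least 54 identical bases for Ubb and 5 for Rps27a. The stretches of the most-read copies that align to the last 30 bases of the gene are printed, with their differences from the gene in capitals. Within a stretch, only those bases tell a copy from the gene. The PAS position with most reads lay past each stretch, at 60411738, 10232467, 121231365 and 122407439 in the order printed.
Ubb copy on chromosome 6, minus strand, 60411746 to 60411775: aatgttaataaaggttttgttgcatggtTa
Ubb copy on chromosome 3, plus strand, 10232432 to 10232461: aatgttaataaaggttttgttgcatggtTa
Ubb copy on chromosome 2, plus strand, 121231324 to 121231353: aaCgttaataaaggttttgttgcatggtaa
Rps27a copy on chromosome 6, plus strand, 122407401 to 122407430: gcgttaataaaaagaaggaactcgtaAAAa

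The Ubb copies differ from the gene by 1 of these 30 bases each. Over all 3′READS libraries the 3 Ubb copies held 2986, 1927 and 962 reads in the order printed. The first 2 are intergenic, and the third is in an intron of Catsper2 on the opposite strand. The printed Rps27a copy differs by 3 bases, held 10746 reads and lies in an exon of the pseudogene Gm8430, inside an intron of Rimklb on the opposite strand. A second Rps27a copy on chromosome 9, in Rps27a-ps2, held 263 reads.

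**Figure D1:**
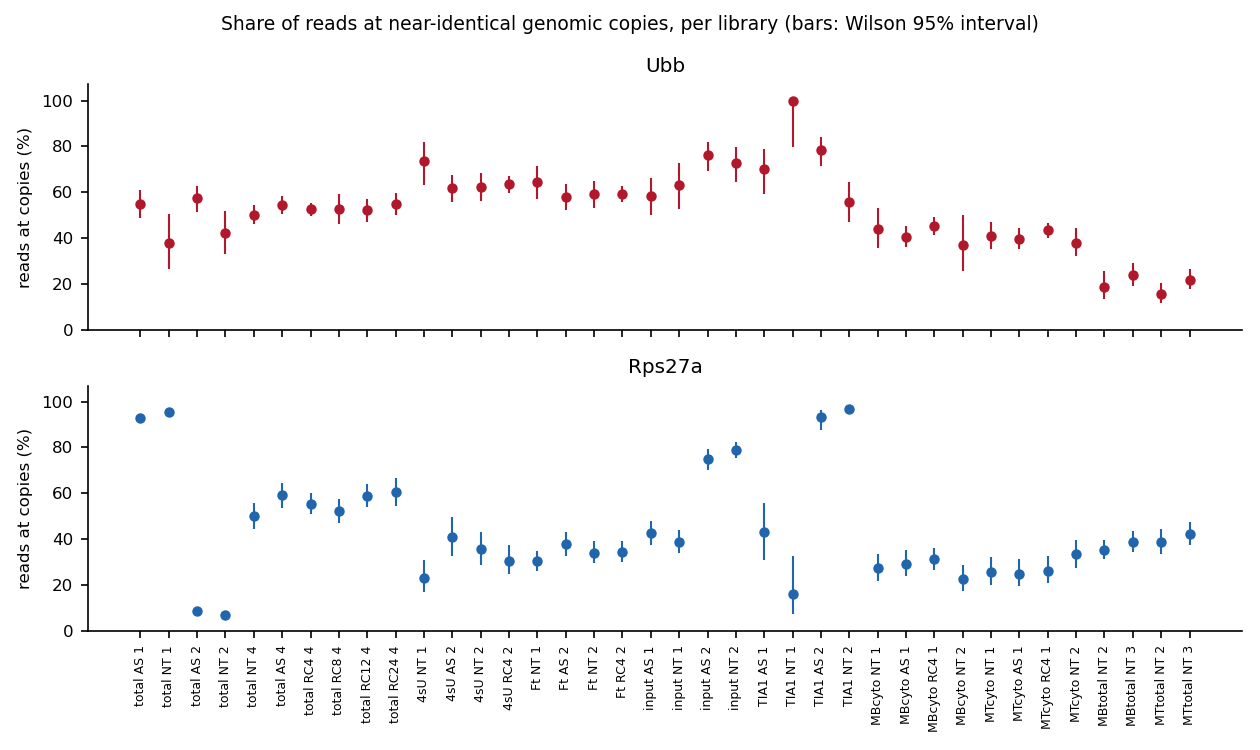
Share of reads at near-identical genomic copies (percent of the reads at gene and copies together) in each 3′READS library, with Ubb and Rps27a in separate panels and bars for the Wilson 95% interval. The Ubb share lies between 15.4% and 100%, with a median of 54.5%, and the Rps27a share falls into different levels in different total RNA sets.

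Reads at copies made up 50.3% of the Ubb reads and 56.1% of the Rps27a reads over all 3′READS libraries, as the plot of shares by library shows. For Ubb the share stayed between 37.7% and 57.2% in the 10 NIH3T3 total RNA libraries and between 15.4% and 23.8% in the 4 C2C12 total RNA libraries. For Rps27a the share depended on the set. In NIH3T3 total RNA it was 95.5% in NT and 92.7% in AS of replicate 1, 6.91% and 8.66% in replicate 2, and between 50.0% and 60.7% in the libraries of replicate 4. The cause of these set differences was not tested. Reads at the gene alone were therefore the main measure, and the copies' reads were added as an alternative chosen after the data were seen.

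RNA-seq counted reads over the coding sequence, where both genes were strongly expressed. Scaled to reads per 1000000 reads of the library (RPM) and per kb of coding sequence, Ubb had levels of 1589 and 1649 in the 2 NT libraries, 2085 in AS and 4333 in RC4. The RC4 library was highest and both NT libraries were lowest. The Rps27a levels on the same scale were 1004 and 1077 in NT, 929 in AS and 779 in RC4, so its order was the opposite one. Ubb gave 1459 to 1514 RPM in NT by RNA-seq and 9.40 to 189 RPM (of PAS reads) in NT total RNA by 3′READS, levels from separately made and separately scaled tables.

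Ubb was called at RC4 and not at AS in RNA-seq. Its log2 change from NT was 2.17 (SE 0.12, edgeR adjusted p = 3.08e-11) at RC4 and 0.41 (SE 0.13, edgeR adjusted p = 0.0796) at AS. Of all genes tested, 51.1% were called at RC4 and 4.46% at AS. Rps27a gave log2 changes of -0.12 (SE 0.14, edgeR adjusted p = 0.779) at AS and 0.34 (SE 0.14, edgeR adjusted p = 0.0515) at RC4. The sign of the Rps27a change at RC4 rested on the scaling. Trimmed mean (TMM) scaling put the median of all genes at -0.06 on the log2 scale, with 2854 genes called higher and 2879 lower, whereas library totals put it at -0.81, with 1118 higher and 6590 lower, and gave Rps27a -0.42 (edgeR adjusted p = 0.0142). Relative to the median gene Rps27a was therefore above it under both scalings, and Ubb rose under both.

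**Figure D2:**
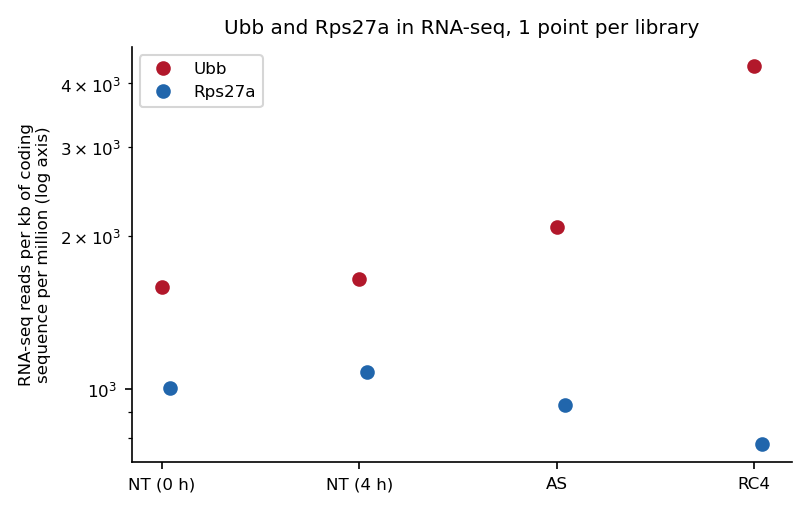
RNA-seq RPM divided by kb of coding sequence (log axis), in the 2 NT, 1 AS and 1 RC4 libraries for Ubb and Rps27a, 1 point per library. Ubb goes from 1589 and 1649 in NT to 4333 in RC4, while Rps27a goes from 1004 and 1077 to 779.

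Reads inside the ubiquitin units can be placed only by the bases that differ between units. The Ubb units were 95.6% to 99.1% identical to each other and 80.7% identical to the Rps27a unit. Units of Ubb are thus harder to tell from each other than from that of Rps27a. How far the counts of either gene are uncertain there was not tested.

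In NIH3T3 total RNA by 3′READS, the libraries of replicates 1, 2 and 4 stood far apart for both genes. Ubb gave 13.5, 9.40 and 189 RPM in NT of replicates 1, 2 and 4, and 28.5, 17.8 and 232 RPM in AS. Each AS library was above the NT library of its own number, but the groups overlapped because replicate 4 was higher throughout. The recovery libraries all carry the number 4, and in them Ubb had 302 RPM at RC4, 65.4 at RC8, 103 at RC12 and 177 at RC24, with exact Poisson 95% intervals of 278 to 328, 53.5 to 79.3, 88.1 to 119 and 152 to 204. Beside the NT library of that number (168 to 212), RC4 was higher, RC8 and RC12 were lower and the RC24 interval overlapped. These intervals cover counting error only.

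**Figure D3:**
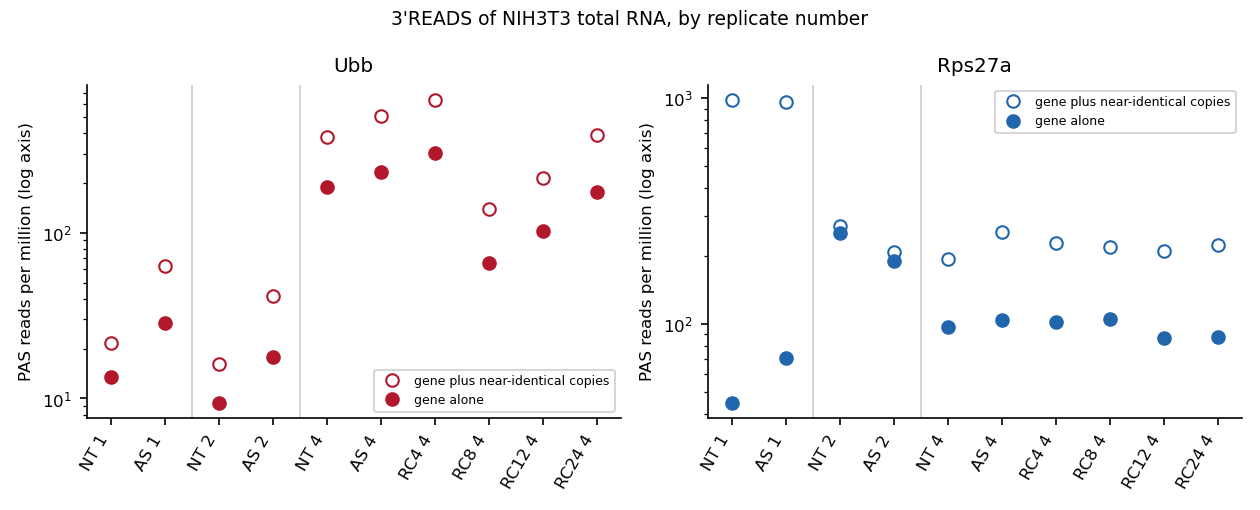
RPM of PAS reads (log axis) of Ubb and Rps27a in the 10 NIH3T3 total RNA libraries, 1 point per library labeled by condition and replicate number, with filled points for the gene alone and open points for the gene with its near-identical copies. In replicate 4 the filled Ubb points go from 189 in NT to 302 at RC4 and 65.4 at RC8, while those of Rps27a stay between 86.6 and 105.

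Rps27a gave 44.6, 253 and 96.4 RPM in NT of replicates 1, 2 and 4, and 70.3, 191 and 104 RPM in AS. In recovery it had 102, 105, 86.6 and 87.8 RPM at RC4, RC8, RC12 and RC24. These 4 values lay inside the range of the 3 NT libraries, and the NT range was wider for Rps27a and Ubb alike than any change with treatment.

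Without the replicate number in the model, neither gene was called at any time in total RNA. The Ubb log2 changes were 0.41 (SE 1.36) at AS, 2.31 (SE 1.75) at RC4, -0.20 (SE 1.95) at RC8, 0.50 (SE 1.87) at RC12 and 1.26 (SE 1.81) at RC24. Those of Rps27a were -0.15 (SE 0.74), -0.28 (SE 1.07), -0.55 (SE 1.09), -0.77 (SE 1.11) and -0.78 (SE 1.11). Without NT replicate 4 the Ubb values were 4.84 at RC4 and 3.78 at RC24. Background was 0% of the 9254 genes tested in each of these 5 comparisons. At an unadjusted p under 0.05, edgeR gave 19 genes at AS, 512 at RC4, 154 at RC8, 78 at RC12 and 226 at RC24, and DESeq2 called 0, 27, 9, 1 and 1 genes.

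The same-numbered NT and AS libraries deviated together, so the replicate number was also fitted as a block. With it, Ubb was called at RC4, with a log2 change of 1.08 (SE 0.27, edgeR adjusted p = 0.0396), where 9.23% of all genes were called. The blocked Ubb values were 0.71 (SE 0.20, edgeR adjusted p = 0.403) at AS, -1.43 (SE 0.31, edgeR adjusted p = 0.0825) at RC8, -0.73 (SE 0.30, edgeR adjusted p = 0.469) at RC12 and 0.03 (SE 0.28) at RC24. The shares of all genes called there were 0.184%, 0.411%, 0.13% and 0%, and the last, with edgeR, had 623 genes at an unadjusted p under 0.05. Rps27a was not called at any time, with blocked log2 changes between -0.22 and 0.27. With the copies' reads added, the blocked Ubb value at RC4 was 1.24 (SE 0.31, edgeR adjusted p = 0.038). In the pairs of replicates 1, 2 and 4, the log2 difference of AS from NT was 1.08, 0.92 and 0.29 for Ubb and 0.66, -0.41 and 0.11 for Rps27a, so Ubb was higher in 3 of 3 pairs and Rps27a in 2 of 3. With the copies' reads added these differences were 1.55, 1.36 and 0.43 for Ubb and -0.04, -0.38 and 0.40 for Rps27a, so that Rps27a was higher in 1 of 3.

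Newly made and pre-existing RNA were separated to ask whether a change lies in synthesis or in the older pool. In the 4sU fraction, Ubb had 8.75 and 21.5 RPM in the 2 NT libraries, 44.7 in AS and 53.3 in RC4. In the Ft fraction it had 20.8 and 32.0 RPM in NT, 46.6 in AS and 96.0 in RC4. In both fractions the AS and RC4 libraries were above both NT libraries. Rps27a had 39.8 and 27.3 RPM in NT, 32.7 in AS and 30.7 in RC4 of the 4sU fraction, and 105, 73.9, 83.3 and 89.1 RPM in the same order in Ft. Its AS and RC4 levels lay between the 2 NT levels in both fractions.

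**Figure D4:**
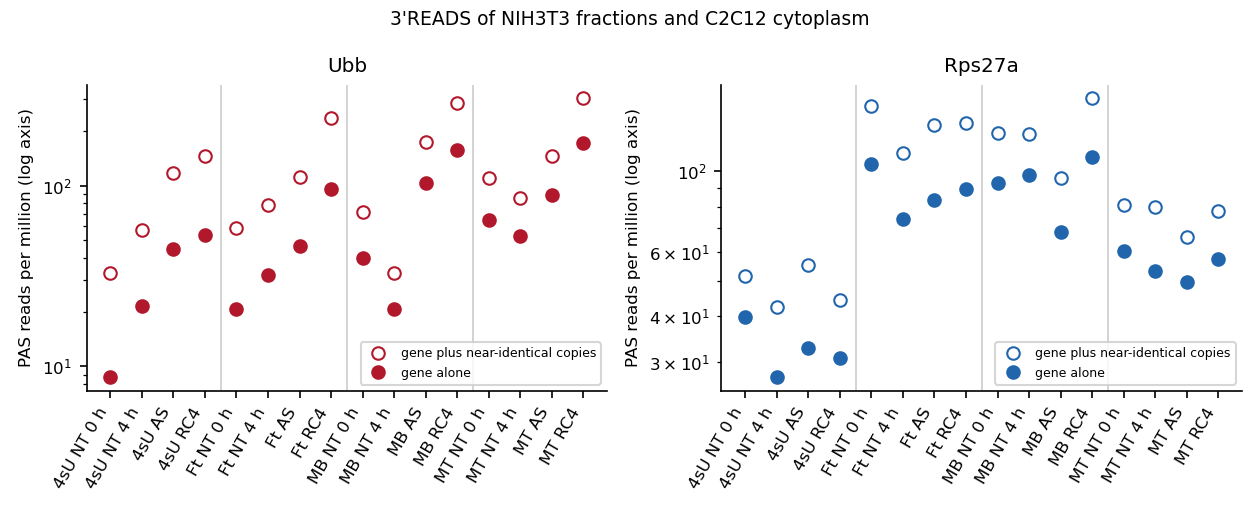
RPM of PAS reads (log axis) of Ubb and Rps27a in the 4sU and Ft libraries of NIH3T3 cells and the cytoplasmic libraries of MB and MT, 1 point per library, with filled points for the gene alone and open points for the gene with its near-identical copies. The filled Ubb points go from 8.75 and 21.5 in NT to 53.3 at RC4 in 4sU and from 20.8 and 32.0 to 96.0 in Ft, whereas those of Rps27a at AS and RC4 of both fractions lie between the 2 NT points.

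Ubb was called in newly made RNA at both times and in older RNA at RC4. Its log2 change in 4sU was 1.69 (SE 0.40, edgeR adjusted p = 0.0334) at AS and 2.04 (SE 0.37, edgeR adjusted p = 0.00194) at RC4. In Ft it was 0.82 (SE 0.38, edgeR adjusted p = 0.454) at AS and 2.30 (SE 0.36, edgeR adjusted p = 0.000683) at RC4. The background was 5.58% and 28.8% of genes in 4sU and 1.24% and 28.1% in Ft at the same times. The Ubb call in 4sU at AS was lost with DESeq2 (log2 change 1.79, DESeq2 adjusted p = 0.0514). Rps27a was not called, with 0.16 and 0.17 in 4sU and -0.10 and 0.43 in Ft (SE 0.29 to 0.35), and its RC4 values turned to -0.13 and -0.01 with library totals, which put the median of all genes at -0.33 and -0.45 there.

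The scaling moved the balance of all calls in these libraries. TMM gave 291 genes higher and 255 lower in 4sU at AS, 1491 and 1323 in 4sU at RC4, and 1621 and 1132 in Ft at RC4. Library totals gave 217 and 437, 951 and 2287, and 946 and 2631. The Ubb calls in 4sU at AS and RC4 and in Ft at RC4 held under both.

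The balance of Ft to 4sU was compared within each condition, and the 2 genes were not tested against each other. Rps27a was higher in Ft in each condition, by 1.61 in NT (SE 0.26, edgeR adjusted p = 0.000332), 1.35 in AS (SE 0.38, edgeR adjusted p = 0.0217) and 1.87 in RC4 (SE 0.36, edgeR adjusted p = 0.00235) on the log2 scale. Ubb was higher in Ft by 0.92 in NT (SE 0.35, edgeR adjusted p = 0.0431) and 1.18 in RC4 (SE 0.41, edgeR adjusted p = 0.0408), and its value in AS was 0.06 (SE 0.45, edgeR adjusted p = 0.946). In all, 49.2%, 27.5% and 35.5% of genes were called in NT, AS and RC4. Adjusted for the number of Us in the transcript, which bears on 4sU labeling, the values in NT, AS and RC4 were 0.50, 0.22 and 0.76 for Rps27a and 0.43, -0.61 and 0.53 for Ubb, with no test. The Rps27a call in AS was lost with DESeq2. The calls of Ubb also rested on the settings. Without 4sU NT replicate 1 its value in NT was 0.53 (edgeR adjusted p = 0.173), without Ft NT replicate 2 it was 0.60 (edgeR adjusted p = 0.278), and with library totals the NT and RC4 values were 0.70 (edgeR adjusted p = 0.114) and 0.81 (edgeR adjusted p = 0.138). With library totals the split of all calls went from 2283 higher and 2529 lower to 1637 and 3131 in NT, and from 1753 and 1721 to 1073 and 2681 in RC4.

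The change of this balance with treatment was itself tested. For Ubb it was -0.87 (SE 0.56, edgeR adjusted p = 0.64) from NT to AS and 0.26 (SE 0.54) from NT to RC4, and for Rps27a -0.26 (SE 0.46) and 0.27 (SE 0.44). No gene was called in either comparison by edgeR, a background of 0% in each. At an unadjusted p under 0.05 edgeR gave 1005 and 1331 genes, and DESeq2 called 13 and 19. With the culture as a block edgeR called 532 and 986 genes, and the Ubb value of -0.93 (SE 0.38, edgeR adjusted p = 0.143) was not among them.

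Cytoplasmic RNA of C2C12 cells gave the same comparisons in another lineage. In MB, Ubb had 40.0 and 20.9 RPM in NT, 104 in AS and 157 in RC4. In MT it had 64.7 and 52.9 RPM in NT, 88.3 in AS and 172 in RC4. In both states the AS and RC4 libraries were above both NT libraries and RC4 was above AS. Rps27a had 92.7 and 97.9 RPM in NT, 68.0 in AS and 109 in RC4 of MB, and 60.5, 53.3, 49.6 and 57.3 RPM in the same order in MT.

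Ubb was called at RC4 in both states. The log2 change was 2.73 (SE 0.35, edgeR adjusted p = 0.018) in MB and 1.69 (SE 0.33, edgeR adjusted p = 0.0498) in MT, where 3.93% and 2.78% of genes were called. The MT call was lost without MT NT replicate 1 (1.83, edgeR adjusted p = 0.138), without MT NT replicate 2 (1.56, edgeR adjusted p = 0.223), with library totals (1.51, edgeR adjusted p = 0.0693), with no filter (1.69, edgeR adjusted p = 0.0954) and with the copies' reads added (1.78, edgeR adjusted p = 0.0646). At AS the changes were 1.71 (SE 0.36, edgeR adjusted p = 0.238) in MB and 0.54 (SE 0.34, edgeR adjusted p = 0.629) in MT, against a background of 0.252% and 0.195%. The MB value at AS passed without MB NT replicate 1 (2.23, edgeR adjusted p = 0.00011) or MB NT replicate 2 (1.32, edgeR adjusted p = 0.0147). The scaling moved the balance of all calls at RC4, from 204 higher and 139 lower to 142 and 388 with library totals in MB, and from 184 and 59 to 147 and 90 in MT. Rps27a gave -0.55 and 0.55 in MB and -0.24 and 0.15 in MT at AS and RC4 (SE 0.24 to 0.25), none called.

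The Ubb change was smaller in MT than in MB by 1.16 at AS (SE 0.51, edgeR adjusted p = 0.819) and by 1.04 at RC4 (SE 0.50, edgeR adjusted p = 0.585), neither called. Without MB NT replicate 1 these values were -1.68 (edgeR adjusted p = 0.0247) and -1.56 (edgeR adjusted p = 0.0279), MT minus MB. The Rps27a differences were 0.31 (SE 0.35) and -0.40 (SE 0.35). Of all genes, edgeR called 0% in each, with 548 and 846 genes at an unadjusted p under 0.05, and DESeq2 called 1 and 12.

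Between non-treated MT and MB the members differed in opposite directions. In total RNA of non-treated cells, Ubb had 37.9 and 52.8 RPM in MB and 61.2 and 61.4 in MT, and Rps27a had 93.7 and 62.1 RPM in MB and 51.6 and 46.5 in MT. Neither gene's groups overlapped. The log2 difference of MT from MB was 0.58 for Ubb (SE 0.16, edgeR adjusted p = 0.00408) and -0.50 for Rps27a (SE 0.17, edgeR adjusted p = 0.0197), while 61.6% of all genes were called. The Rps27a call was lost without MB replicate 2 (-0.20, edgeR adjusted p = 0.31), without MT replicate 3 (-0.41, edgeR adjusted p = 0.12) and with DESeq2 (DESeq2 adjusted p = 0.0831), and without MB replicate 3 the value was -0.78. The Ubb value was 0.36 (edgeR adjusted p = 0.0463) without MB replicate 2.

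TIA1 binding was measured as the log2 ratio of antibody-recovered to input cytoplasmic RNA in NT and AS cells, with 2 replicates each, and the 2 kinds of library of one number came from the same lysate. Rps27a had few reads in the TIA1 libraries, with 26 and 12 in NT and 32 and 10 in AS, against 219 and 114 and against 186 and 82 in the inputs. All 4 TIA1 levels, from 1.95 to 8.15 RPM, lay far below all 4 input levels, from 41.9 to 60.1 RPM. Reads at copies made up 38.8% and 42.6% of the Rps27a reads in the inputs of replicate 1 and 79.0% and 75.1% in those of replicate 2 (NT and AS), and 16.1%, 42.9%, 96.8% and 93.1% in the TIA1 libraries in the same order. Ubb was not listed in 1 TIA1 library of NT, so had under 5 reads and entered as 0, and had 53 reads in the other, with 24 and 35 in TIA1 of AS, 32 and 36 in the NT inputs and 60 and 41 in the AS inputs.

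Without the replicate number in the model, the log2 ratio of TIA1 to input was -3.60 in NT (SE 0.82, edgeR adjusted p = 0.0502) and -3.41 in AS (SE 0.82, edgeR adjusted p = 0.0655) for Rps27a. It was -1.44 (SE 1.32, edgeR adjusted p = 0.57) and -1.67 (SE 1.32, edgeR adjusted p = 0.525) for Ubb. The Ubb value in NT rested on which TIA1 library was used, at -0.39 without TIA1 NT replicate 1, in which Ubb was not listed, and -8.43 without replicate 2, a fitted value against 0 reads that depends on the prior count. The Rps27a value in AS was -3.53 without TIA1 NT replicate 1 or 2. The Rps27a value in AS passed the threshold with DESeq2 and with no filter. The background was 3.62% and 0.634% of genes. With the number as a block, Rps27a was called in both conditions, at -3.80 (SE 0.56, edgeR adjusted p = 0.00218) and -3.59 (SE 0.55, edgeR adjusted p = 0.00323), where 19.5% and 17.9% of genes were called. Ubb gave -1.87 (SE 1.23, edgeR adjusted p = 0.318) and -1.71 (SE 1.17, edgeR adjusted p = 0.354) in that fit. With the copies' reads added to the blocked fit, Rps27a stayed called at -2.51 (edgeR adjusted p = 0.00524) and -2.80 (edgeR adjusted p = 0.00432), and Ubb was at -1.88 in NT (edgeR adjusted p = 0.015) and -1.37 in AS (edgeR adjusted p = 0.05).

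Arsenic stress did not give a called change of TIA1 binding or of the input level for either gene. The change of the ratio from NT to AS was -0.22 (SE 1.85) for Ubb and 0.20 (SE 1.08) for Rps27a, and the inputs changed by 0.62 (SE 1.29) and -0.23 (SE 0.73). Of all genes, 0.0109% were called for the inputs and 0% for the change of the ratio, the latter with 204 genes at an unadjusted p under 0.05 in edgeR and 5 called by DESeq2. With the block these shares were 0.131% and 0%, and no member was called.

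**Figure D5:**
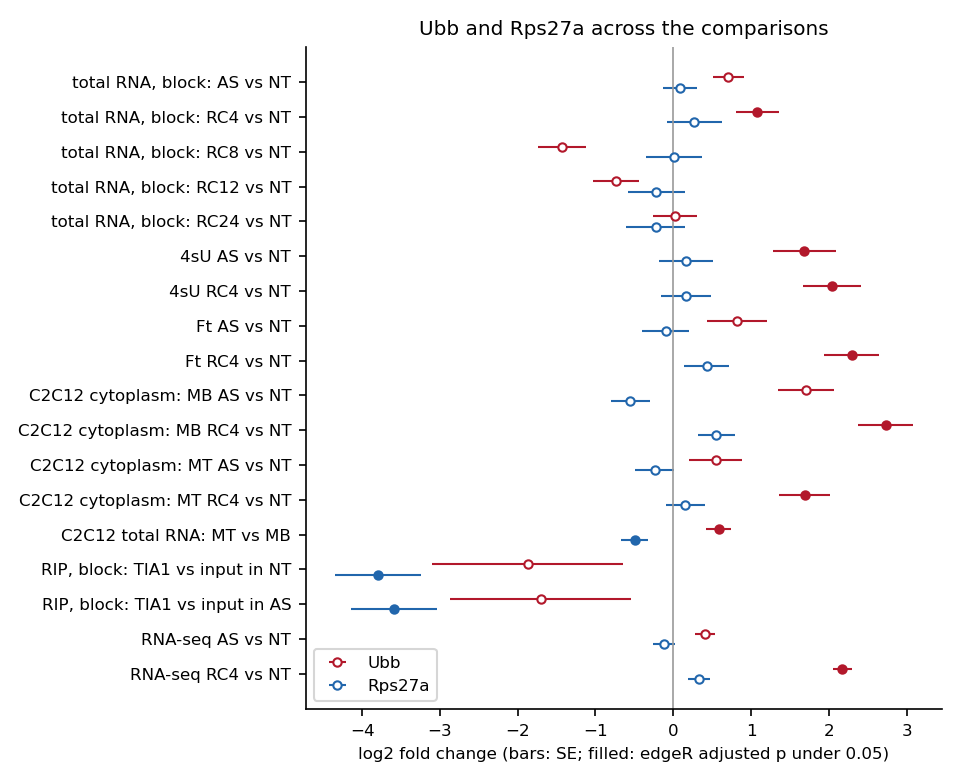
Log2 fold change of Ubb and Rps27a in each comparison (edgeR estimate with its standard error as a bar, filled where the adjusted p is under 0.05), with the blocked fit for total RNA and TIA1. Ubb points lie right of 0 at RC4 in 4sU (2.04), Ft (2.30), MB (2.73), MT (1.69) and RNA-seq (2.17), and Rps27a is filled for MT against MB (-0.50) and for TIA1 against input (-3.80 and -3.59).

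Alternative polyadenylation, the use of different PASs of one gene, was the subject of the study, and the second PASs of Ubb and Rps27a were rare. The second PAS of Ubb was listed in 7 of 37 libraries, and its share was highest in NT total RNA of replicates 1 (23.7%, 9 of 38 reads, Wilson 95% interval 13.0% to 39.2%) and 2 (23.7%, 14 of 59 reads, 14.7% to 36.0%). In the AS libraries of the same numbers it was 0% of 119 reads and 13.7% of 124 reads, and it was 0% in every library of replicate 4. A library in which a second PAS was not listed entered as 0%, although that PAS could hold under 5 reads. With few reads per gene, the shares of both genes and their tests depend in part on this limit and on depth. The mean share was 4.57% ± 7.92 (SD, n = 3) in AS and 15.8% ± 13.7 (SD, n = 3) in NT, with p = 0.4 in an exact two-sided permutation test whose smallest possible p is 0.1. The second PAS of Rps27a had a median share of 3.09% over 38 libraries and a highest share of 21.9%. Its mean was 2.21% ± 2.63 (SD, n = 3) in AS and 0.629% ± 1.09 (SD, n = 3) in NT of total RNA, with an exact permutation p of 0.7. That difference turned to -0.04 percentage points when PASs within 50 nt were joined, which merged the main and the second PAS.

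The ratio of Ubb to Rps27a reads within a library does not depend on scaling. In RNA-seq it was 3.08 and 2.99 in NT, 4.38 in AS and 10.8 in RC4, and the RC4 library stood highest. In replicate 4 of NIH3T3 total RNA, the 3′READS ratio was 1.96 in NT, 2.22 in AS, 2.96 at RC4, 0.623 at RC8, 1.18 at RC12 and 2.01 at RC24. Across the fractions it was 0.22 and 0.787 in NT, 1.37 in AS and 1.74 in RC4 of 4sU, and 0.198 and 0.433, 0.559 and 1.08 of Ft. In the C2C12 cytoplasm it went from 0.431 and 0.213 in NT to 1.52 in AS and 1.44 in RC4 of MB, and from 1.07 and 0.993 to 1.78 and 3.00 of MT. In each of these sets the RC4 ratio was above every NT ratio. In the 3′READS sets this also held with the copies' reads added, where the 4sU ratio went from 0.639 and 1.35 in NT to 3.30 at RC4.

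The ratio was tested where groups had replicates. The log2 ratio was higher in AS than in NT of total RNA by 0.65 on average, with an exact two-sided permutation p of 0.7 (n = 3 and 3, smallest possible p 0.1). Within the pairs of replicates 1, 2 and 4 the difference was 0.43, 1.33 and 0.18, higher in 3 of 3. With the copies' reads added the average was 1.12 (exact permutation p of 0.5) and the pairs gave 1.59, 1.74 and 0.03. The average turned to -0.81 without NT replicate 2 and -0.52 without AS replicate 4, and was 2.05 without NT replicate 4 and 1.76 without AS replicate 2. In non-treated C2C12 total RNA the ratio was 1.19 and 1.32 in MT and 0.405 and 0.849 in MB, a log2 difference of 1.09 with an exact permutation p of 0.333, the smallest that 2 against 2 allows. Without MB replicate 2 the difference was 0.56, and without MB replicate 3 it was 1.63. Over the 4 exact tests of PAS shares and ratios, the Benjamini-Hochberg adjusted p was 0.7 for each.

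Over the 38 3′READS libraries, the levels of Ubb and Rps27a had a Pearson r of 0.53 on the log2 scale. The genes most like Ubb were Gins1 (r = 0.87), Vdac2 (0.85) and Parl (0.84) among 5960 genes with at least 5 reads in every library. Those most like Rps27a were Eif3g (0.95), Znhit1 (0.92) and Tceb2 (0.92) among 5959 genes. The libraries share sets, depth and treatments, and the sets differ more than the treatments, so these values describe the libraries as a whole. Ubb itself was not listed in TIA1 NT replicate 1 and entered there as 0 reads with a small constant added. That lowest value bears on every r of Ubb, and no r was computed without it.

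Other genes of the ubiquitin pathway were read from lists of enzymes and related proteins. At RC4 in RNA-seq, 15 of 30 E2 enzymes tested, which carry activated ubiquitin to its targets, were called higher and 2 lower, with a median log2 change of 0.47 beside -0.06 for all genes and 51.1% of all genes called. With library totals 5 were called higher and 13 lower (median -0.28 beside -0.81), so the direction of this list rested on the scaling. Ube2t, the E2 of the DNA crosslink repair pathway, was among those that fell, at -1.66 (SE 0.63, edgeR adjusted p = 0.0331). Of the 2 E1 enzymes, which activate ubiquitin, 1 was called higher (median 0.20). Of 9 deubiquitinases that process precursors or recycle ubiquitin, 2 were called higher and 2 lower (median -0.01), and of 10 ubiquitin-like proteins 5 were called higher (median 0.53), counts to be read beside the same 51.1%. With library totals 1 of the E1 enzymes was called lower and none higher (median -0.55), 7 deubiquitinases were called lower and none higher (median -0.77), and 2 ubiquitin-like proteins were called higher and 5 lower (median -0.22). At AS in RNA-seq, 1 E2 enzyme and no E1, deubiquitinase or ubiquitin-like gene was called, beside 4.46% of all genes.

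In the fractions at RC4, 6 of 27 E2 enzymes were called higher and 2 lower in 4sU, and 9 higher and 2 lower in Ft, where 28.8% and 28.1% of all genes were called. With library totals these counts were 2 higher and 3 lower in 4sU and 4 and 4 in Ft. Of 8 deubiquitinases, 3 were called higher in 4sU and 1 in Ft, and with library totals 1 was called higher and 1 lower in 4sU and 1 lower in Ft. In the C2C12 cytoplasm at RC4, 2 of 26 E2 enzymes were called higher in MB and 1 lower in MT, beside 3.93% and 2.78% of all genes called, and the one in MT was Cdc34 with -1.23 (SE 0.23, edgeR adjusted p = 0.0421). Ubb was called higher at RC4 in RNA-seq, 4sU, Ft, MB and MT, each with 1 RC4 library, and the 4sU and Ft libraries came from the same culture. In NIH3T3 total RNA, Ubb was not called at RC4 without the replicate block and was called with it. The MT call was lost with library totals, with no filter, with the copies' reads added and without either MT NT replicate.

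Since Rps27a also encodes a ribosomal protein, it was set beside a list of 80 other cytosolic ribosomal protein symbols. At RC4 in RNA-seq, 68 of 77 tested were called higher and none lower (median 0.55), beside 51.1% of all genes called. With library totals 14 were called lower and none higher (median -0.20), where 6590 of all genes were called lower and 1118 higher. Their direction therefore rested on the scaling, as that of Rps27a did. At AS none was called (median -0.02), beside 4.46% of all genes. In Ft against 4sU, 48 were called higher and 1 lower of 61 tested in NT (median 1.21), 31 and 1 in AS (median 0.98) and 51 and 1 in RC4 (median 1.71). Of all genes, 49.2%, 27.5% and 35.5% were called there, with medians of -0.03, 0.02 and -0.06. Rps27a was called higher in each of these, although its call in AS was lost with DESeq2. These values are not adjusted for the number of Us in the transcript. With that adjustment Rps27a was at 0.50, 0.22 and 0.76 in NT, AS and RC4, with no test, and the list was not adjusted. In MT against MB, 28 of 61 were called lower and 4 higher (median -0.34), beside 61.6% of all genes called. Rps27a was also called lower there, a call lost with DESeq2 and without MB replicate 2 or MT replicate 3. For TIA1 against input in the blocked fit, 29 of 61 in NT and 32 of 61 in AS were called lower and none higher, with medians of -1.78 and -2.05 beside 0.02 and 0.17 for all genes, of which 19.5% and 17.9% were called. Without the block 8 and 3 of the 61 were called lower, beside 3.62% and 0.634% of all genes called. Rpl35a, of the large subunit, was called lower without the block, at -3.37 (SE 0.60, edgeR adjusted p = 0.0324) in NT.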

How the data were processed

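The deposited 3′READS files hold raw counts of PAS reads per PAS cluster, and the RNA-seq files raw counts of reads per gene over the coding sequence. For 3′READS the authors trimmed adapters with Cutadapt, aligned them to mm9 with Bowtie2, dropped poorly placed alignments, required untemplated Ts as evidence of a poly(A) tail, and clustered PASs within 24 nt. For RNA-seq they mapped reads with STAR. Dropping such alignments removes reads that could come from several places, so genes with near-identical copies may be undercounted or their reads split. No normalized values were used.

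PASs were assigned to GENCODE genes (mm9), and 1257 positions that fell to more than 1 gene and mitochondrial PASs were left out. Counts per gene were tested with edgeR 4.0.16 (quasi-likelihood, TMM factors) in R 4.3.3 over all genes with a mean of at least 10 reads per library of the fit, with Benjamini-Hochberg adjustment over all genes tested and a threshold of 0.05. Separate fits covered total RNA (10 libraries), 4sU and Ft (8), TIA1 and input (8), C2C12 cytoplasm (8), C2C12 total RNA (4) and RNA-seq (4). The SE is the size of the log2 change divided by the square root of F. The method was tested on counts simulated with a dispersion (spread beyond counting error) of 0.05 and no replicate effect. The fitted common dispersion was 0.49 in total RNA and 0.30 in TIA1 and input, so the simulation does not cover those fits. Alternatives were DESeq2 1.42.0, library totals, no filter, each replicate left out, the replicate block, and, added after seeing the data, reads at near-identical copies.

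Replicate numbers pair the total RNA samples, since the deviations of same-numbered NT and AS libraries correlated at 0.84, 0.83 and 0.76. TIA1 and input libraries of one number share a lysate (0.27 to 0.29), and 4sU and Ft of one number share a culture. The TIA1 block is the number, so it also ties the separate NT and AS lysates of one number. Between those, deviations correlated at 0.41 for the inputs and 0.28 for TIA1.

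The named genes are Ubb and Rps27a, the 3 genes most correlated with each member, and from each list at most the 2 called genes with the largest rise and the 2 with the largest fall per comparison. Other items that the rule takes in are not reported here. Lists covered E1 and E2 enzymes, deubiquitinases, ubiquitin-like proteins, ribosomal proteins, stress genes, and fibroblast, myoblast and myotube markers. The members and lists were chosen with earlier results of these data known. Poisson and Wilson intervals are at 95% and cover counting error only.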

Additional observations from a re-analysis of the deposited data

Results flagged for a closer look

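Reads outside the genes themselves were found at near-identical copies of both 3′ ends. Over all 3′READS libraries the copies of Rps27a held 11044 reads, against 8642 at the gene, and those of Ubb held 5903 reads, against 5834 at the gene. Both are signals in PASs that the comparisons at the gene alone do not use. The share at the Rps27a copies ran from 6.91% to 96.8% between libraries, with a median of 38.2%, and that at the Ubb copies from 15.4% to 100%, with a median of 54.5%.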

How the results depend on the processing

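Of the results of Ubb and Rps27a recomputed under other settings, 260 and 255 were counted as unchanged, 18 and 28 turned in direction, 13 and 4 lost a call, 7 and 11 gained one, and 4 and 4 values without a test moved. A tested value counted as unchanged if it kept its direction and its side of the threshold. A value without a test counted as turned only if its main value was called and the sign differed. Otherwise it was unchanged within the SD of the NT libraries around the main value, whatever its sign, and moved beyond it. Causes were not tested. All values are log2 differences unless said otherwise.

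With the replicate block, Ubb in total RNA was 1.08 at RC4 and -0.73 at RC12, and Rps27a was 0.085 at AS, 0.273 at RC4 and 0.0087 at RC8. With block and copies, Ubb was 1.24 at RC4 and -0.58 at RC12, and Rps27a 0.235 at RC4. For TIA1 against input, the block gave Rps27a -3.80 in NT and -3.59 in AS, and the change for Ubb was 0.162. With block and copies Rps27a was -2.51 and -2.80, Ubb in NT was -1.88, and the changes were 0.509 for Ubb and -0.293 for Rps27a. With copies alone, Rps27a was 0.0050 in total RNA at AS and 0.0298 in Ft at AS, Ubb was -0.084 for Ft against 4sU in AS and 1.78 in MT at RC4, and the TIA1 changes were 0.324 for Ubb and -0.462 for Rps27a. In C2C12 total RNA the numbers 2 and 3 are shared only as numbers (r = 0.042), and the block left both calls in place, with Ubb at 0.60 and Rps27a at -0.48. No other call of Ubb or Rps27a changed with a block.

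With library totals, Rps27a was -0.13 in 4sU, -0.014 in Ft, -0.023 in MT and -0.42 in RNA-seq at RC4, and Ubb was 0.70, -0.025 and 0.81 for Ft against 4sU in NT, AS and RC4 and 1.51 in MT at RC4. With DESeq2, Ubb was 1.79 in 4sU at AS and 0.94, -0.022 and 1.16 for Ft against 4sU in NT, AS and RC4, and Rps27a was 1.27 for Ft against 4sU in AS, -3.63 and -3.53 for TIA1 against input, -0.50 for MT against MB and 0.39 in RNA-seq at RC4. With no filter, Ubb was 0.91 for Ft against 4sU in NT and 1.69 in MT at RC4, and Rps27a -3.60 and -3.40 for TIA1. After adjustment for uridine number, Ft against 4sU in NT, AS and RC4 was 0.427, -0.608 and 0.527 for Ubb and 0.497, 0.220 and 0.762 for Rps27a. Against the NT of the same time, the change of Ft against 4sU at AS was -1.33 for Ubb and -0.21 for Rps27a. Joining PASs within 50 nt turned the share of the second Rps27a PAS to -0.038 percentage points.

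Leaving out 1 replicate at a time, Ubb ranged from -1.49 to 2.94 for total RNA AS, 1.80 to 4.84 for total RNA RC4, -0.72 to 2.32 for total RNA RC8, -0.015 to 3.02 for total RNA RC12, 0.74 to 3.78 for total RNA RC24, -8.43 to -0.39 for TIA1 against input in NT, 0.53 to 1.69 for Ft against 4sU in NT, -0.010 to 0.059 for Ft against 4sU in AS, -0.55 to 0.61 for the change of Ft against 4sU at RC4, -1.39 to 6.64 for the change of TIA1 against input at AS, 1.32 to 2.23 for C2C12 cytoplasm MB AS, 1.56 to 1.82 for C2C12 cytoplasm MT RC4, -1.68 to -0.76 for the AS change in C2C12 cytoplasm, MT minus MB, -1.56 to -0.61 for the RC4 change in C2C12 cytoplasm, MT minus MB. Rps27a ranged from -0.67 to 0.88 for total RNA AS, -0.70 to 0.74 for total RNA RC4, -0.97 to 0.47 for total RNA RC8, -1.19 to 0.25 for total RNA RC12, -1.20 to 0.24 for total RNA RC24, -0.096 to 0.57 for 4sU AS, -0.17 to 0.50 for 4sU RC4, -0.35 to 0.19 for Ft AS, -0.66 to 0.037 for the change of Ft against 4sU at AS, -0.11 to 0.56 for the change of Ft against 4sU at RC4, -4.80 to -2.84 for TIA1 against input in AS, -1.23 to 1.19 for the change of TIA1 against input at AS, -0.78 to -0.20 for C2C12 total RNA MT against MB. The log2 ratio of Ubb to Rps27a ranged from -0.81 to 2.05 for AS minus NT in total RNA and 0.56 to 1.63 for MT minus MB.

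Counts of calls over all genes moved by more than 1.5 times in 21 comparisons with DESeq2, 9 without the filter, 10 with the block, 7 with block and copies and 1 with library totals (MB at RC4, 343 to 530). DESeq2 gave 289 for 546 in 4sU at AS, 1102 for 2814 and 1175 for 2753 at RC4 in 4sU and Ft, 2748 for 4812, 1163 for 2690 and 1564 for 3474 for Ft against 4sU, 1262 for 331 and 1075 for 58 for TIA1, 18 for 1 for the inputs, 59 for 22 and 60 for 17 at AS in MB and MT, and 290 for 500 in RNA-seq at AS. No filter gave 1140 and 938 for TIA1, 24 for the inputs, 10 for the TIA1 change, 1 for the Ft change at RC4, 10 and 124 in MB and 5 and 151 in MT (main counts 22 and 343, 17 and 243). The block gave 17, 854, 38 and 12 for 0 in total RNA at AS, RC4, RC8 and RC12 (14 at AS with copies), 1788 and 1641 for TIA1 (1789 and 1641 with copies), 12 for the inputs and 4156 for Ft against 4sU in AS. The low read counts of Rps27a and Ubb in the TIA1 libraries limit those ratios.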
